A study of Mus musculus with 6 samples.

Results

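The genes described are 50 that build and run the lysosome: hydrolases and their helpers, membrane proteins, the TFEB family of transcription factors and the proton pump. They were chosen by name for what they encode, with cathepsins left out, and looked up by Entrez gene ID among the 36528 genes listed. All 50 were found, and all 50 passed the filter on low counts that left 13353 genes to test. Lysosomes are the acidic compartments in which cells take apart sugar chains, lipids, proteins and glycosaminoglycans, and phagocytes such as macrophages are rich in them. Their work rests on soluble hydrolases, on membrane glycoproteins that line and serve the compartment, and on the vacuolar ATPase (V-ATPase), a proton pump whose membrane-embedded V0 sector carries protons driven by the cytosolic V1 sector. Transcription factors of the TFEB family switch on many lysosomal genes through a shared DNA element that contains the letters CACGTG.

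Transcripts were measured by RNA sequencing in mouse HOXB-8 cells derived from bone marrow, a line of myeloid progenitors kept dividing by the homeobox protein HOXB8. The 6 libraries form 2 groups of 3, and the replicate numbers used here only name them, in accession order. The Parental group is wild type for Irf2 and, per the extraction notes, carries a control guide RNA named Luc. The IRF2_KO group received a guide RNA against Irf2, the gene of interferon regulatory factor 2, and the same notes call the lines iMACs. Age, sex and treatment are not given, and nothing says that a line is 1 clone or that cultures were grown apart. The p-values set the difference between the labels against the spread of libraries within a label. That spread may therefore be technical alone. Library totals lay between 29070160 and 39925038 counts. Irf2 itself did not pass the test (log2 fold change -0.08, edgeR adjusted p = 0.209), and since a small edit may leave a transcript in place, its level checks neither label. Gsdmd, the gasdermin D gene, fell by 5.05 on the log2 scale. Of the genes that mark such progenitors, Hoxb8 (127 CPM in Parental), Myb (644) and Mpo (918) were well expressed, Kit was at 8.04 CPM, and Cd34 had at most 2 reads in a library. In IRF2_KO, Myb fell by 0.44, Mpo by 0.52 and Kit by 3.26 on the log2 scale, and Hoxb8 did not pass. Of the other progenitor markers, Elane fell by 1.69, Flt3 by 0.85 and Cebpa by 0.53. Ctsg rose by 0.13 and Ptprc by 0.12, and Prtn3 and Spi1 did not pass. Levels are in CPM, the usual depth-normalised read count, with library totals scaled by TMM, and comparisons between genes use the deposited RPKM, which are also per gene length. Positions are on GRCm38.

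Most lysosomal genes were higher in the IRF2_KO libraries, and most by less than 1.5-fold. Of the 50 genes, 37 rose (74.0%), none fell and 13 did not pass the test (quasi-likelihood F-test of edgeR, adjusted over all genes after Benjamini and Hochberg, threshold 0.05). Over all genes tested 47.2% were called, 23.6% higher and 23.6% lower. At an unadjusted p under 0.05, 1 of the 50, Cd63, was lower, and DESeq2 and limma-voom likewise called 37 higher and 0 lower. Scaled by library total alone, 37 were higher and 3 lower (Cd63, Gusb and Atp6v0b), and without IRF2_KO replicate 2, 37 were higher and 2 lower (Cd63 and Atp6v0b). The median log2 fold change of the set was 0.29, against -0.01 over all genes tested, and 44 of its 50 estimates were above 0, against 48.0% of all genes. In 39 of the 50 genes (78.0%) each IRF2_KO library lay above each Parental library, which held for 26.4% of all genes, and in 1, Gusb, each lay below, against 27.6% of all genes. Rises of at least 1.5-fold were fewer, with 8 members (16.0%) against 8.51% of all genes, and no member fell that far, against 3.83% of all genes. Those 8 were Atp6v0d2, Gpnmb, Sgsh, Arsb, Grn, Lipa, Cd68 and Idua. Summed over the set, the level was 9414 to 9575 CPM in the Parental libraries and 11762 to 12268 CPM in the IRF2_KO libraries, ranges that do not overlap. The largest parts of that rise came from Grn (532 to 890 CPM on average), Gpnmb (185 to 535), Laptm5 (850 to 1155) and Lamp1 (1126 to 1409).

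**Figure D1:**
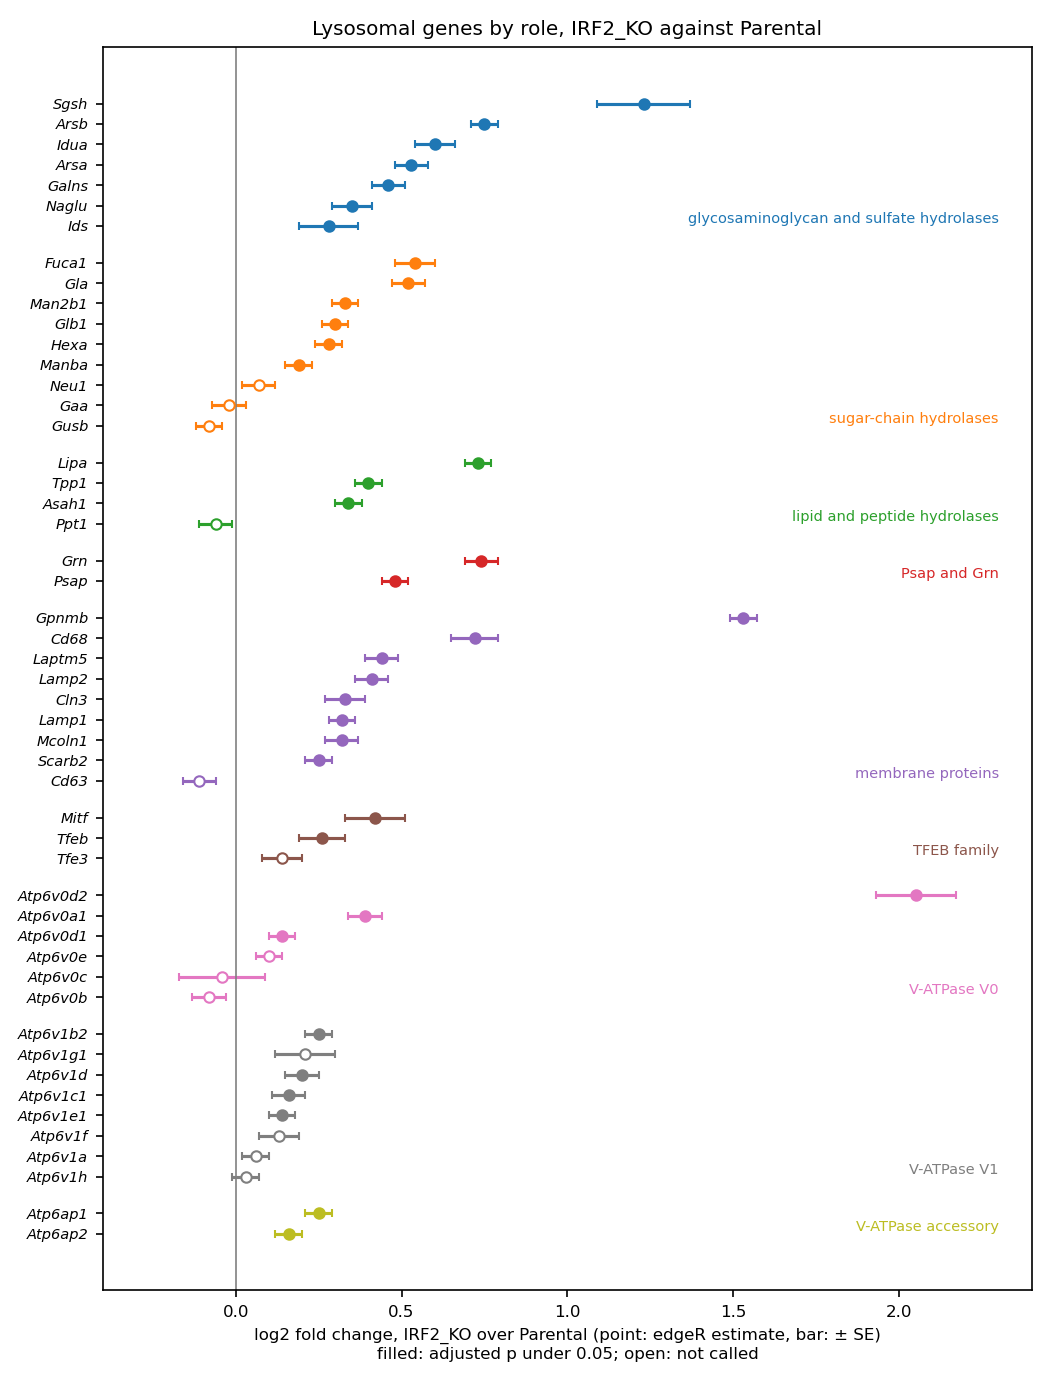
Log2 fold change of each of the 50 genes (horizontal axis, IRF2_KO over Parental, edgeR estimate ± SE, 3 libraries per group), grouped by role on the vertical axis. Filled points passed the test and open points did not; 37 filled points lie to the right of 0 and none to the left, with Atp6v0d2 (2.05) and Gpnmb (1.53) farthest out.

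Macrophage markers were also higher in the same libraries. Of 18 such markers 12 could be tested, of which 9 rose (75%) and 1 fell (8.33%). Over all genes tested the shares were 23.6% higher and 23.6% lower. The marker that fell was Cd14 (58 ± 1.18 to 29.3 ± 0.877 CPM), and Mertk and Apoe did not pass. The summed level of the list was 559 to 571 CPM in Parental and 1381 to 1411 CPM in IRF2_KO. Most of that rise was Lpl (71.8 ± 1.23 to 472 ± 15 CPM), Lyz2 (193 ± 5.43 to 480 ± 9.97 CPM) and Itgam (130 ± 2.54 to 247 ± 9.25 CPM). C1qb was at 0 in every library, and C1qa, C1qc and Marco had at most 1 read in any. Among progenitor markers 6 of 11 tested fell (54.5%) and 2 rose (18.2%). The number that rose was 0 when scaled by library total alone, without Parental replicate 2 or without IRF2_KO replicate 3. Their summed levels were 12519 to 13520 CPM in Parental and 10421 to 11854 CPM in IRF2_KO. Prtn3, Ctsg and Elane made up most of that sum. Of these, only Elane fell, from 2989 ± 98.9 to 924 ± 72.2 CPM. Prtn3 did not pass (4007 ± 222 and 4237 ± 393 CPM), and Ctsg rose by 0.13 (3829 ± 165 to 4195 ± 234 CPM). Neutrophil markers rose in 6 of 11 (54.5%) and fell in 2 (18.2%), and dendritic cell markers rose in 4 of 5 (80%) and fell in 1 (20%). The shares that fell in these lists were below the 23.6% of all genes. Lymphoid markers summed to at most 0.126 CPM in any library, with Cd3e, Ms4a1 and Ncr1 at 0. In the group of erythroid, mast cell and stromal markers, 2 of 7 could be tested and 1 rose, with sums of 1.16 to 1.39 CPM and 1.78 to 2.41 CPM, and Hba-a1, Cpa3 and Tpsb2 at 0. The part of such markers in the lysosomal differences was not tested. In bulk RNA, more cells of a lysosome-rich kind and more lysosomal RNA per cell cannot be told apart.

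The TFEB-type element was looked for in the promoters of the set. RefSeq promoter windows, running from 250 bases before to 50 bases after a transcript start on GRCm38.p6, were at hand for 43 of the 50 genes (52 windows). The 6 letters CACGTG, which read the same on both strands, were found for 13 of the 43 genes (30.2%), against 11.9% of the 9884 tested genes with a window and 8.09% of all 27025 genes with one. By window of this one length the shares were 25.0% of the 52, against 10% of the 12593 windows of tested genes and 7.15% of all 32851. The longer form TCACGTGA, which contains the first, was found for 6 of the 43 (14%) against 2.18% of tested genes. Another pattern, GAAANNGAA on either strand, resembling sites of the interferon regulatory factors, was found for 5 of the 43 (11.6%) against 8.66% of tested genes. Such matches describe letters in a window and say nothing of binding. Of 20 CACGTG matches in the set, 14 lay within 100 bases of the start.

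The genes below rose in IRF2_KO and hold CACGTG between 100 bases before and 50 bases after the start. They are shown because they span the hydrolases, membrane proteins and pump of the set, and because the number and place of the matches differ between them. Each is written 5′ to 3′ on the strand of its gene, in lower case, with capitals marking CACGTG, or TCACGTGA where the longer form is present. Lamp1 is chr8:13159061-13159210 on the plus strand. Mcoln1 is chr8:3500419-3500568 on the plus strand. Glb1 is chr9:114400978-114401127 on the plus strand. Naglu is chr11:101069994-101070143 on the plus strand. Sgsh is chr11:119355461-119355610 on the minus strand. Arsa is chr15:89477375-89477524 on the minus strand. Atp6v0d1 is chr8:105566015-105566164 on the minus strand.
Lamp1: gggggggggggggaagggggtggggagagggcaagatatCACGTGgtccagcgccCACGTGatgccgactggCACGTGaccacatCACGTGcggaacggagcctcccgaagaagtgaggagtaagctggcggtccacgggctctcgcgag
Mcoln1: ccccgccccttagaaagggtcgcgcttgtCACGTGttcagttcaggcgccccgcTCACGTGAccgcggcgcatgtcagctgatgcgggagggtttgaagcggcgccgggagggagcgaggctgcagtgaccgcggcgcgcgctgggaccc
Glb1: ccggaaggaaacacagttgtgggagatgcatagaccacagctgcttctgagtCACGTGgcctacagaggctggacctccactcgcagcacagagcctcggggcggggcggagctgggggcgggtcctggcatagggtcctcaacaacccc
Naglu: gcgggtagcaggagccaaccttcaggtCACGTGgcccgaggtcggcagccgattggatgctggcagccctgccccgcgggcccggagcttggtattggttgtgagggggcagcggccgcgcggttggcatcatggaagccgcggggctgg
Sgsh: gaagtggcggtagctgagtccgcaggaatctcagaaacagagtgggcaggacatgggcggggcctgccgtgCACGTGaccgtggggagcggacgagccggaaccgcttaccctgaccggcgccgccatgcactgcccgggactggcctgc
Arsa: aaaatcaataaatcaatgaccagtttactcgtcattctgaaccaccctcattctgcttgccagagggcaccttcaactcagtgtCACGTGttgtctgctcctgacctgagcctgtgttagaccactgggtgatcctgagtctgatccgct
Atp6v0d1: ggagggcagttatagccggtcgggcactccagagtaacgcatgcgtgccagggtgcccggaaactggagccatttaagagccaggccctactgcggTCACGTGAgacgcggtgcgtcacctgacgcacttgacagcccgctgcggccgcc

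Lamp1 holds 4 copies in this stretch and Mcoln1 holds 2, while the other 5 hold 1 each. The 13 genes with CACGTG had a median of 0.32 for the log2 fold change, and 9 of them rose. The 30 genes with a window but no match had a median of 0.28, and 23 of them rose. Gpnmb, Arsb, Grn, Lipa, Cd68 and Idua, each up at least 1.5-fold, had no CACGTG in their windows, whereas Atp6v0b, Atp6v0e, Atp6v1a and Gaa had it and did not pass the test.

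Of the sulfatases and other hydrolases grouped under glycosaminoglycans and sulfated lipids, 7 of 7 rose, the median log2 fold change being 0.53. Gusb, the glucuronidase, which also acts on glycosaminoglycans, is counted with the sugar-chain hydrolases below and did not pass the test (-0.08). Sgsh (chromosome 11, 119343489 to 119355510), the sulfamidase that removes N-linked sulfate from heparan sulfate, stood at 2.73, 3.56 and 4.55 CPM in Parental and 8.26, 8.37 and 8.86 CPM in IRF2_KO (log2 fold change 1.23, SE 0.14, edgeR adjusted p = 8.54e-07). The lowest IRF2_KO library was above the highest Parental one, although Sgsh had the lowest level per length of the set (0.812 ± 0.204 RPKM in Parental, mean ± SD, n = 3). Sgsh overlaps Card14, which rose by 1.22 on the log2 scale from 1.21 CPM, and Slc26a11, which rose by 0.50 from 1.47 CPM, and whether strand was used in counting is not given, so its reads and theirs may be mixed.

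Arsb (chromosome 13, 93771679 to 93943016), the sulfatase of dermatan and chondroitin sulfate, was at 222, 230 and 227 CPM in Parental and 390, 373 and 378 CPM in IRF2_KO (log2 fold change 0.75, SE 0.04, edgeR adjusted p = 4.8e-11). Its groups lay far apart relative to their spread. Idua, the iduronidase that acts on heparan and dermatan sulfate, had 21.6, 22.5 and 24 CPM in Parental and 33.5, 34.9 and 35.3 CPM in IRF2_KO (log2 fold change 0.60, SE 0.06, edgeR adjusted p = 1.94e-07). Arsa, which removes sulfate from the myelin lipid sulfatide, had 64.7, 72.6 and 70.2 CPM in Parental and 97.4, 101 and 101 CPM in IRF2_KO (log2 fold change 0.53, SE 0.05, edgeR adjusted p = 1.11e-07). In both, the groups did not overlap. Arsa overlaps C230037L18Rik, which rose by 1.07 from 1.46 CPM, and Idua overlaps Dgkq and Slc26a1, which did not pass. Smaller rises were measured for Galns, the sulfatase of keratan sulfate and chondroitin 6-sulfate (0.46), Naglu, a glucosaminidase of heparan sulfate (0.35), and Ids, the iduronate sulfatase (0.28). The call for Ids was lost without IRF2_KO replicate 3 (0.27, edgeR adjusted p = 0.0501, against 0.0061 to 0.0501 over its alternatives).

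Heparan sulfate is taken apart in fixed order by enzymes of which Ids, Idua, Sgsh, Naglu and Gusb are members of the set; the first 4 rose and Gusb did not pass. From the list of other hydrolases, Hgsnat, the membrane enzyme that adds an acetyl group, was at 52.1 ± 2.53 CPM in Parental and 53.7 ± 1.14 CPM in IRF2_KO (mean ± SD, n = 3) and did not pass the test.

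Hydrolases of sugar chains rose in 6 of 9 members; their median log2 fold change was 0.28 and none reached 1.5-fold. Fuca1, the fucosidase, stood at 51.8, 53.5 and 55.7 CPM in Parental and 71.1, 82.2 and 81.4 CPM in IRF2_KO (log2 fold change 0.54, SE 0.06, edgeR adjusted p = 4.33e-07). Gla, the galactosidase lacking in Fabry disease, was at 69.1, 68.7 and 69.7 CPM in Parental and 98.5, 104 and 96.1 CPM in IRF2_KO (log2 fold change 0.52, SE 0.05, edgeR adjusted p = 4.34e-08). For both genes the Parental libraries lay close together and below each IRF2_KO library. Man2b1, a mannosidase, was at 293, 300 and 303 CPM in Parental and 369, 383 and 374 CPM in IRF2_KO (log2 fold change 0.33, SE 0.04, edgeR adjusted p = 2.01e-06). Glb1, the acid galactosidase of GM1 ganglioside, was at 115, 113 and 116 CPM in Parental and 138, 141 and 145 CPM in IRF2_KO (log2 fold change 0.30, SE 0.04, edgeR adjusted p = 1.34e-05). These rises were small, 1.26-fold and 1.24-fold, yet the groups did not overlap. Hexa, the alpha chain of hexosaminidase, and Manba, another mannosidase, also rose (0.28 and 0.19), Hexa beside an overlapping gene, Tmem202, that rose by 0.18 from 31.8 CPM. Neu1, the sialidase, Gaa, the glucosidase of glycogen, and Gusb, the glucuronidase, did not pass, with 0.07, -0.02 and -0.08. Neu1 passed without IRF2_KO replicate 1 (0.12, edgeR adjusted p = 0.0349, against 0.0349 to 0.719 over its alternatives). Gusb was at 462, 469 and 480 CPM in Parental and 430, 457 and 445 CPM in IRF2_KO, so that its IRF2_KO libraries all lay below its Parental ones. With scaling by library total alone Gusb was called lower (-0.11, edgeR adjusted p = 0.0244, against 0.0244 to 0.328 over its alternatives).

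Among the enzymes of lipids and peptides 3 of 4 rose. Lipa (chromosome 19, 34492316 to 34527474), the acid lipase that frees cholesterol and fatty acids from lipoprotein esters, was at 77.2, 73.8 and 77.2 CPM in Parental and 129, 123 and 126 CPM in IRF2_KO (log2 fold change 0.73, SE 0.04, edgeR adjusted p = 3.46e-10). Tpp1, a tripeptidyl peptidase, was at 246, 256 and 252 CPM in Parental and 329, 335 and 333 CPM in IRF2_KO (log2 fold change 0.40, SE 0.04, edgeR adjusted p = 1.67e-07). Asah1, acid ceramidase, was at 175, 163 and 164 CPM in Parental and 217, 211 and 209 CPM in IRF2_KO (log2 fold change 0.34, SE 0.04, edgeR adjusted p = 3.88e-06). In each of these genes the groups did not overlap, and Lipa moved most. Ppt1, the thioesterase that strips palmitate from proteins, was at 116, 107 and 110 CPM in Parental and 107, 107 and 104 CPM in IRF2_KO and did not pass (log2 fold change -0.06).

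Both helper proteins of the hydrolases rose. Grn (chromosome 11, 102430507 to 102436809) encodes progranulin, which is cut into granulins in the lysosome, and was at 508, 543 and 545 CPM in Parental and 829, 926 and 916 CPM in IRF2_KO (log2 fold change 0.74, SE 0.05, edgeR adjusted p = 6.15e-10). Psap encodes the precursor of the saposins, which present sphingolipids to their hydrolases, and was at 328, 345 and 351 CPM in Parental and 454, 491 and 481 CPM in IRF2_KO (log2 fold change 0.48, SE 0.04, edgeR adjusted p = 7.07e-08). Per length, Grn went from the fifth highest level of the set in Parental, 222 ± 8.19 RPKM, to 373 ± 24 RPKM. Hexa, level with Grn in Parental at 223 ± 3.3 RPKM, reached 273 ± 11.5 RPKM.

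Of the 9 membrane proteins 8 rose, with a median log2 fold change of 0.33. Gpnmb (chromosome 6, 49036518 to 49058182), a glycoprotein abundant in lipid-laden macrophages, osteoclasts and pigment cells, stood at 188, 184 and 185 CPM in Parental and 531, 542 and 532 CPM in IRF2_KO (log2 fold change 1.53, SE 0.04, edgeR adjusted p = 1.41e-15). It had the smallest adjusted p of the set, and each group's libraries were nearly equal. Cd68, the macrophage glycoprotein macrosialin, was at 16.4, 17.7 and 17.7 CPM in Parental and 27.1, 28 and 30.1 CPM in IRF2_KO (log2 fold change 0.72, SE 0.07, edgeR adjusted p = 6.53e-08). Laptm5, a blood cell protein of the lysosomal membrane, was at 825, 863 and 863 CPM in Parental and 1084, 1214 and 1167 CPM in IRF2_KO (log2 fold change 0.44, SE 0.05, edgeR adjusted p = 3.24e-07). Lamp2, which lines the membrane and serves in autophagy, was at 331, 304 and 297 CPM in Parental and 438, 400 and 403 CPM in IRF2_KO (log2 fold change 0.41, SE 0.05, edgeR adjusted p = 1.73e-06). In these 3 genes the groups did not overlap, and the spread of Laptm5 was wider in IRF2_KO. Gpnmb and Cd68 are themselves macrophage genes, a group whose markers rose in the same libraries, as given above.

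The other structural glycoproteins and channels moved by less. Lamp1, the most abundant member per length (485 ± 8.66 RPKM in Parental and 611 ± 9.35 RPKM in IRF2_KO), rose by 0.32 on the log2 scale. Mcoln1, the calcium channel TRPML1, rose by 0.32, and Scarb2, the receptor that brings glucocerebrosidase to lysosomes, by 0.25. Cln3, the gene of juvenile Batten disease, rose by 0.33, but it overlaps Apobr, a lipoprotein receptor gene that rose by 1.54 from 8.39 CPM, and the reads of the pair may be mixed. Cd63, a tetraspanin of late endosomes and granules, was the member that did not pass, at 113, 110 and 114 CPM in Parental and 99.9, 111 and 103 CPM in IRF2_KO. Its estimate of -0.11 was called lower when libraries were scaled by total alone (-0.14, edgeR adjusted p = 0.0204) and without IRF2_KO replicate 2 (-0.15, adjusted p = 0.012), the range over its alternatives being 0.012 to 0.25.

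**Figure D2:**
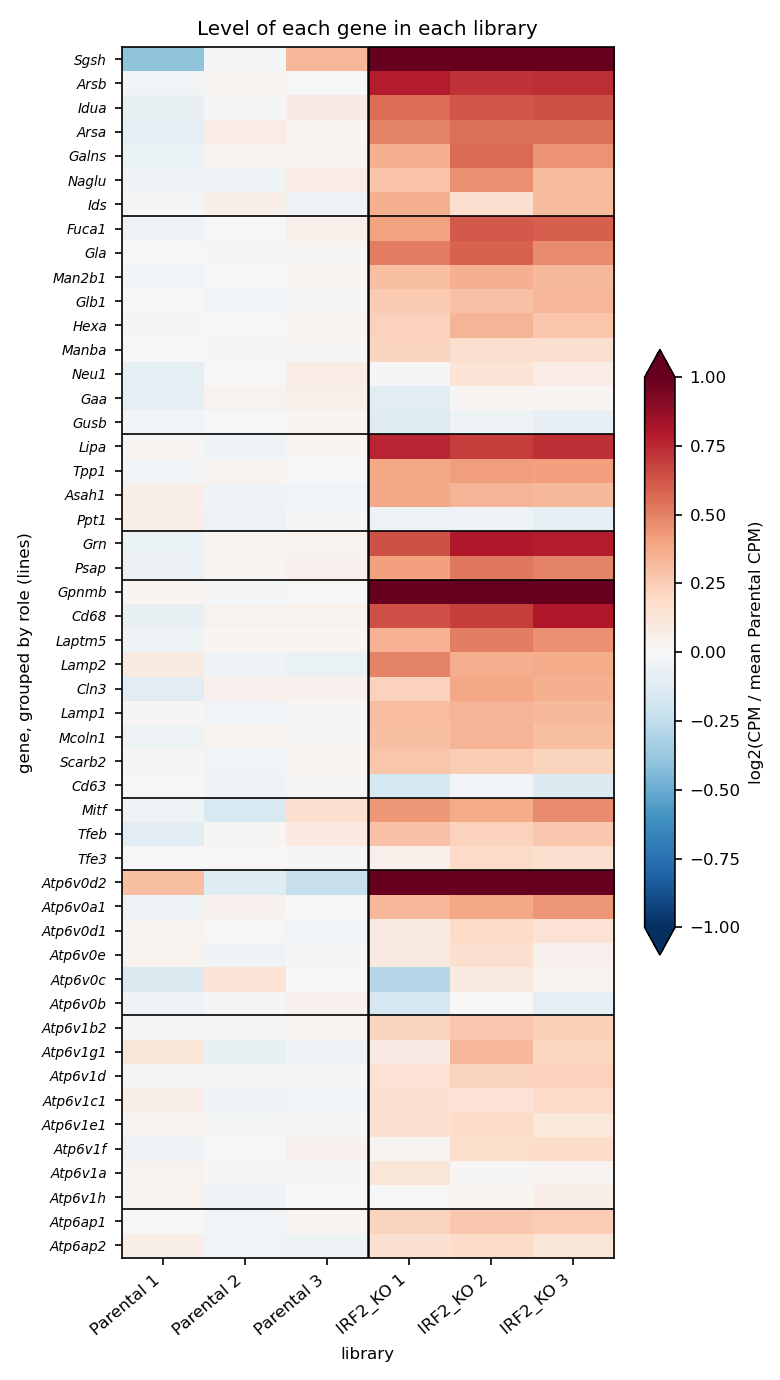
Level of each gene (rows, grouped by role) in each of the 6 libraries (columns) as log2 of its CPM over the mean Parental CPM, with colours capped at -1 and 1. Sgsh, Gpnmb and Atp6v0d2 are darkest in each IRF2_KO library, followed by rows such as Arsb, Lipa, Grn and Cd68, while Ids and most V-ATPase rows are paler.

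Of the TFEB family, which drives lysosomal genes and is held in the cytoplasm by mTORC1 at the lysosome surface, the set holds 3 genes. They were expressed at low levels, and 2 of them rose. Mitf, known for pigment cells and osteoclasts, was at 8.13, 7.51 and 9.4 CPM in Parental and 11.3, 10.8 and 11.6 CPM in IRF2_KO (log2 fold change 0.42, SE 0.09, edgeR adjusted p = 0.000967). Tfeb was at 12.3, 13.4 and 14.2 CPM in Parental and 16.3, 15.6 and 16 CPM in IRF2_KO (log2 fold change 0.26, SE 0.07, edgeR adjusted p = 0.00757). For both, the IRF2_KO libraries lay above the Parental ones. Tfe3 was at 20.2, 20 and 19.9 CPM in Parental and 20.8, 23 and 22.4 CPM in IRF2_KO and was not called (log2 fold change 0.14, edgeR adjusted p = 0.0835), but passed without IRF2_KO replicate 1 (0.19, edgeR adjusted p = 0.0302, against 0.0302 to 0.241 over its alternatives). Per length Tfe3 was the highest of these 3 genes at 4.75 ± 0.0453 RPKM in Parental, followed by Tfeb at 3.48 ± 0.254 and Mitf at 1.27 ± 0.146. Transcript levels do not show where these proteins are or how active they are.

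Rises in the V-ATPase were mostly small. Of its 16 members 9 rose and 7 did not pass, and the median log2 fold change was 0.15, while 28 of the other 34 rose, with a median of 0.35. The difference between these medians was not tested. Atp6v0d2 (chromosome 4, 19876838 to 19922566), a form of the V0 subunit d known from osteoclasts and macrophages, was the exception at 3.41, 2.55 and 2.36 CPM in Parental and 12.4, 11 and 11.2 CPM in IRF2_KO (log2 fold change 2.05, SE 0.12, edgeR adjusted p = 1.92e-10). This 4.14-fold rise was the largest of the set, and the groups were far apart. Per length it remained a minor form, 1.08 ± 0.219 RPKM in Parental and 4.5 ± 0.278 RPKM in IRF2_KO. Its partner form Atp6v0d1 had 165 ± 3.41 and 183 ± 7.47 RPKM, so that Atp6v0d2 supplied 0.647 ± 0.118% and 2.4 ± 0.239% of subunit d by RPKM. Of 7 osteoclast markers, the 2 that could be tested, Oscar and Nfatc1, did not pass. The summed level of all 7 was 28.3 to 32.1 CPM in Parental and 27.3 to 31.4 CPM in IRF2_KO. Nearly all of it was Nfatc1 (28.2 ± 1.91 and 27.2 ± 2.06 CPM), so the sum says little of the other markers. Ocstamp and Calcr were at 0, and Ctsk had at most 6 reads in a library. Acp5 had 1, 1 and 2 reads in Parental and 7, 5 and 2 in IRF2_KO.

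Of the other V0 subunits 2 of 5 rose. Atp6v0a1, a form of the proton-channel subunit a, was at 97.5, 104 and 101 CPM in Parental and 127, 132 and 137 CPM in IRF2_KO (log2 fold change 0.39, SE 0.05, edgeR adjusted p = 1.96e-06). Atp6v0d1 was at 279, 275 and 269 CPM in Parental and 292, 313 and 303 CPM in IRF2_KO (log2 fold change 0.14, SE 0.04, edgeR adjusted p = 0.00903), a call lost without Parental replicate 3 (0.13, edgeR adjusted p = 0.0561, against 0.000736 to 0.0561 over its alternatives). In both the groups did not overlap, and the rise of Atp6v0d1 was about 1.10-fold. Atp6v0b, Atp6v0e and Atp6v0c did not pass (-0.08, 0.10 and -0.04). Atp6v0b was called lower with scaling by library total alone (-0.11, edgeR adjusted p = 0.0483) and without IRF2_KO replicate 2 (-0.13, adjusted p = 0.0215), against 0.0215 to 0.56 over its alternatives. Atp6v0c, which forms most of the proton-carrying ring, had 3.66 ± 0.347 RPKM in Parental, far under its partner Atp6v0b at 243 ± 6.13. RefSeq lists pseudogene copies of Atp6v0c, and reads that align to more than 1 place were not counted, so its level is uncertain.

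In the V1 sector 4 of 8 members rose, each by less than 1.2-fold. Atp6v1b2, a nucleotide-binding subunit, was at 301, 302 and 309 CPM in Parental and 354, 367 and 359 CPM in IRF2_KO (log2 fold change 0.25, SE 0.04, edgeR adjusted p = 5.28e-05). Atp6v1d, part of the central rotor, was at 59.8, 58.4 and 59.6 CPM in Parental and 65.4, 69.2 and 69.4 CPM in IRF2_KO (log2 fold change 0.20, SE 0.05, edgeR adjusted p = 0.00191). For both genes the groups did not overlap. Atp6v1b2 overlaps Slc18a1, which rose by 0.90 from 0.687 CPM. Atp6v1c1 was at 110, 102 and 103 CPM in Parental and 117, 116 and 120 CPM in IRF2_KO (log2 fold change 0.16, SE 0.05, edgeR adjusted p = 0.00852), and Atp6v1e1 was at 149, 144 and 147 CPM in Parental and 162, 166 and 157 CPM in IRF2_KO (log2 fold change 0.14, SE 0.04, edgeR adjusted p = 0.011). The call of Atp6v1c1 was lost without Parental replicate 2, Parental replicate 3 or IRF2_KO replicate 3 (edgeR adjusted p = 0.0546, 0.0502 and 0.0601, against 0.00303 to 0.0601 over its alternatives), and that of Atp6v1e1 without Parental replicate 2 (adjusted p = 0.0601, against 0.00455 to 0.0601). Atp6v1g1, Atp6v1f, Atp6v1a and Atp6v1h did not pass, with 0.21, 0.13, 0.06 and 0.03. Atp6v1g1 passed without Parental replicate 1 or IRF2_KO replicate 1 (both 0.27, edgeR adjusted p = 0.0282 and 0.0163, against 0.0163 to 0.22 over its alternatives), and Atp6v1f passed without IRF2_KO replicate 1 (0.19, adjusted p = 0.0086, against 0.0086 to 0.26). Of the accessory proteins that assemble and guide the pump, Atp6ap1 was at 322, 315 and 326 CPM in Parental and 375, 386 and 382 CPM in IRF2_KO (log2 fold change 0.25, SE 0.04, edgeR adjusted p = 4.33e-05) and Atp6ap2 was at 258, 242 and 240 CPM in Parental and 275, 280 and 269 CPM in IRF2_KO (log2 fold change 0.16, SE 0.04, edgeR adjusted p = 0.00559).

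**Figure D3:**
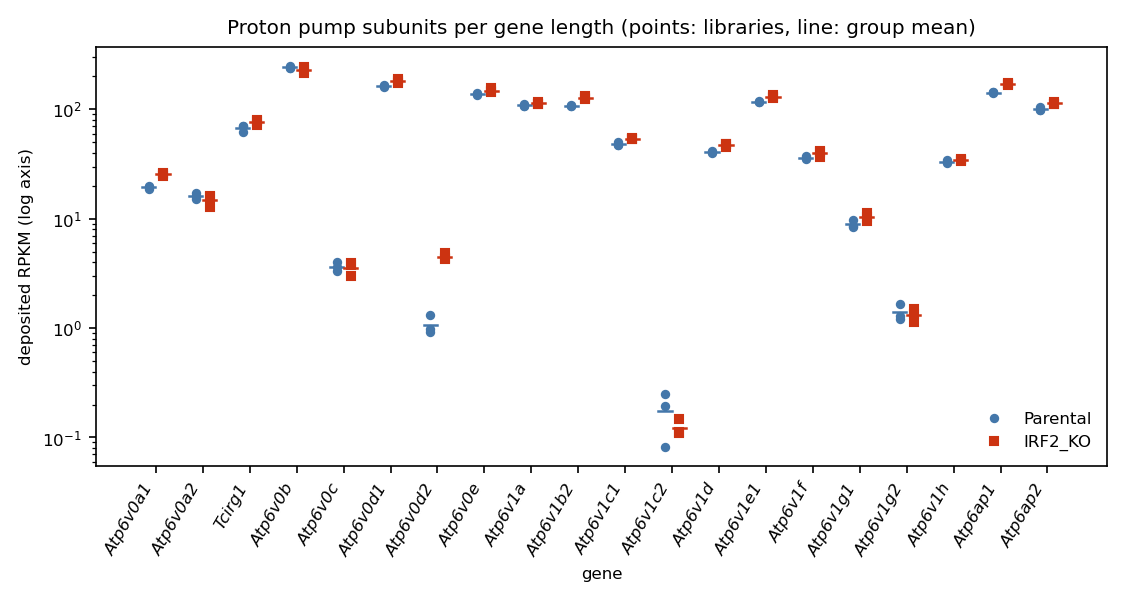
Deposited RPKM of V-ATPase subunit genes in each library (vertical log axis; circles Parental, squares IRF2_KO, short lines the means of 3 libraries), with alternative forms side by side. Atp6v0d2 is the gene whose groups part most, from 1.08 to 4.5 RPKM on average, while Atp6v0d1 averages 165 and 183.

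Several subunits have alternative forms encoded by separate genes. Of subunit a, Tcirg1, the form that acidifies the bone-resorbing surface of osteoclasts, gave 65.6 ± 0.906% of the summed RPKM in Parental and 65.6 ± 1.19% in IRF2_KO. Atp6v0a1 gave 18.8 ± 0.683% and 21.7 ± 0.766%, and Atp6v0a2 gave 15.7 ± 0.405% and 12.7 ± 1.58%. Tcirg1 rose by 0.17 on the log2 scale (231 ± 17.4 to 261 ± 13.3 CPM, edgeR adjusted p = 0.0124), and Atp6v0a2 did not pass (-0.13). Atp6v1g2 gave 13.6 ± 2.67% and 11.4 ± 2.16% of subunit G. The kidney and testis forms Atp6v1b1 and Atp6v1e2, and Atp6v1g3, were listed at 0 in each library, and Atp6v0a4 and Atp6v0e2 had at most 3 reads in a library. Among the other pump genes of that list of 13, of which 8 could be tested, Wdr7 and Tcirg1 rose (25%, beside 23.6% of all genes). Rogdi, a factor of pump assembly, fell by 0.29. Without Parental replicate 1 or IRF2_KO replicate 3, 1 gene of this list was called higher.

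**Figure D4:**
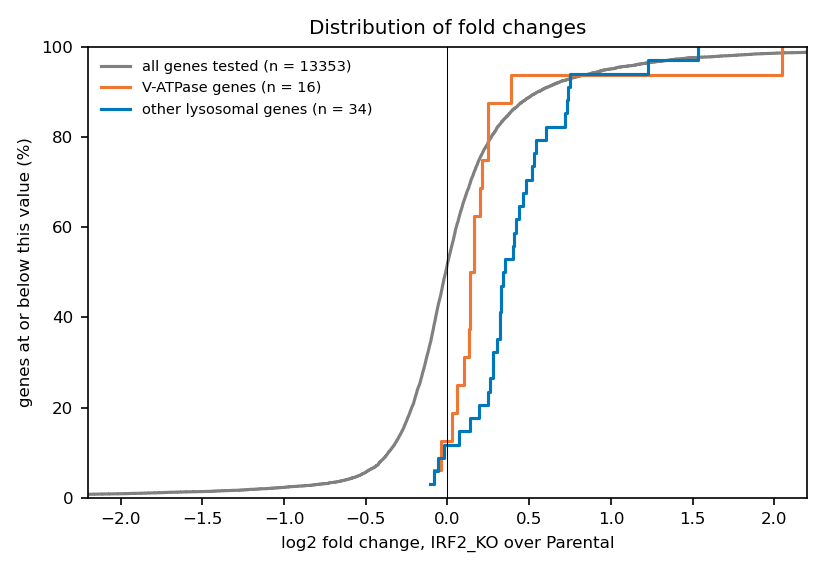
Cumulative share of genes (vertical axis, percent) at or below each log2 fold change (horizontal axis, IRF2_KO over Parental) for all 13353 genes tested, the 16 V-ATPase genes and the other 34 lysosomal genes; values beyond the axis are not drawn. The curves cross 50% at the medians, -0.01, 0.15 and 0.35.

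Genes of the lysosome outside the set were counted in lists by function. Of the other hydrolases, 16 of 23 tested were higher (69.6%) and 1 lower, with a median of 0.40. Lgmn, the asparaginyl endopeptidase, rose by 2.01 on the log2 scale but from 17, 17 and 18 reads in Parental to 59, 59 and 52 in IRF2_KO. Gm2a, the activator of GM2 ganglioside breakdown, rose from 78.5 ± 0.235 to 149 ± 5.91 CPM. Naaa, an amidase of fatty acid ethanolamides, was the one that fell, by 0.28, and that call was lost at a threshold of 0.01 and without Parental replicate 3 or IRF2_KO replicate 3.

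Of other membrane and transport proteins 7 of 22 tested were higher (31.8%, beside 23.6% of all genes) and 1 lower, with a median of 0.09. Slc11a1, the metal transporter of phagosomes, rose by 1.19 from 13, 13 and 21 reads to 24, 32 and 31. The sialic acid exporter Slc17a5 rose from 18.4 ± 0.661 to 25.7 ± 0.796 CPM, and Npc2, which hands on cholesterol, rose from 346 ± 7.74 to 477 ± 16.1 CPM. Its partner in cholesterol export, Npc1, did not pass (0.09), and Tpcn1, a cation channel, fell by 0.13, a call lost without Parental replicate 2, Parental replicate 3 or IRF2_KO replicate 3. Without Parental replicate 3, 4 genes of this list were called higher.

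Sorting genes were called about as often in each direction as all genes tested. Of the mannose 6-phosphate pathway, which tags and carries hydrolases, 2 of 9 tested rose (22.2%) and 2 fell (22.2%). Over all genes tested 23.6% were higher and 23.6% lower. The median of the list was -0.00 after rounding. Sort1, the sorting receptor sortilin, rose from 604 ± 2 to 932 ± 31.5 CPM and M6pr, the small mannose 6-phosphate receptor, from 466 ± 11.3 to 551 ± 17.5 CPM. Nagpa, which uncovers the tag, fell by 0.23 and Gga3, an adaptor, by 0.15. The calls lower in this list numbered 1 with DESeq2 and without Parental replicate 3, IRF2_KO replicate 1 or IRF2_KO replicate 3. The large receptor Igf2r was too low to test, with at most 12 reads in a library.

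In the list of mTORC1 and folliculin genes, 3 of 16 tested were higher (18.8%), beside 23.6% of all genes, and 1 lower. Fnip2 and Fnip1, partners of folliculin, rose by 0.36 and 0.25, and Lamtor2 by 0.25, while Lamtor4, another Ragulator subunit, fell by 0.32. Autophagy genes rose in 8 of 20 (40%) and fell in 3, with a median of 0.11. Map1lc3a rose from 3.55 ± 0.224 to 8.4 ± 0.954 CPM, Vps18, a tethering factor of lysosome fusion, fell from 67.8 ± 2.25 to 50.3 ± 2.03 CPM, and Wipi1 rose by 0.37. The cargo receptor Sqstm1, itself a TFEB target, did not pass (-0.04).

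The 50 genes lie on 17 chromosomes, at most 7 on any. Levels per length ran from 0.812 RPKM for Sgsh to 485 RPKM for Lamp1 in Parental, with Laptm5 (324 ± 7.82) second, then Atp6v0b, Hexa and Grn, of which the last pair did not differ beyond their spread. Across the 50 genes Spearman's rho between Parental RPKM and log2 fold change was -0.30, a description over genes that share the same libraries. The Parental libraries enter both the level and the fold change, so these measures are not independent. Among tested genes with mean levels between 10.7 and 461 CPM, the 10th to 90th percentile of the set, 23.8% were higher and 28.6% lower.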

How the data were processed

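RNA was purified with a column kit and DNase treatment, and the labels' protocols name a total RNA library kit that marks strand, while the molecule label names polyA RNA; this was not resolved. Per the submitters' processing notes the aligner was GSNAP and the build GRCm38. Annotation, versions and strand use in counting: not given in the sources used here. The authors deposited whole-number counts of uniquely aligned reads per gene model, per the file headers, so genes with near-identical copies may be undercounted. They also deposited size-factor-adjusted RPKM, per the file headers. Over 10251 genes with 100 or more reads per library these RPKM equalled the counts rescaled by library and gene, and they were used for levels between genes without a test.

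Symbols came from RefSeq (GRCm38.p6) for 31049 of 36528 IDs, all members included. In R 4.3.3, edgeR 4.0.16 kept 13353 genes (filterByExpr), applied TMM (factors 0.987 to 1.02) and compared 3 libraries with 3 by its robust quasi-likelihood method, two-sided, adjusting p over all genes by Benjamini-Hochberg. SE was taken as the log2 fold change over the root of the F value. A total of 3 counts corresponds to 0.0751 to 0.103 CPM, which covers counting error only. Library pairs within a group had a mean chi-square per gene of 2.78 to 10.1, above sampling noise, so none was merged. The fit was also tested on simulated counts.

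The members, lists, roles and tests were chosen with earlier results of these data known. Values per library are given for up to 4 called members of each role with the largest change and for the TFEB family. Of other lists, up to 3 called genes with the largest change are named, with the pump's alternative subunits, Irf2 and Gsdmd. Some genes of these lists are not reported here by name. Other genes named were chosen after their values were seen. Alternatives tried were other scalings (RLE, upper quartile, library total), DESeq2 1.42.0, limma-voom (limma 3.58.1), other filters, stricter thresholds, removal of the 100 most abundant genes, and each library left out in turn. Promoter sequences are RefSeq's.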

Additional observations from a re-analysis of the deposited data

How the results depend on the processing

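No paired analysis was possible because the labels give no replicate numbers; those used here follow accession order and pair nothing. Over 14 alternative fits, 36 of the 50 genes kept their direction and side of the threshold in each that tested them, 4 lost a call in at least 1, 7 gained one, and 3 changed sign. The number of members called higher was 35 to 41 without 1 library and 35 to 37 under the other settings, except that 8 rose at least 1.5-fold; removing the 100 most abundant genes also removes members. Members called lower numbered 3 with library size alone (Cd63, Gusb and Atp6v0b) and 0 to 2 without 1 library. The median log2 fold change of the members was 0.29, 0.26 with library size alone, and 0.30 with RLE or upper-quartile factors. With library size alone the median over all genes was -0.04, a shift of -0.03. Of the other lysosome pathway genes, 38 of 98 tested were higher (38.8%) and 9 lower (9.18%), beside 23.6% of all genes in each direction. At 1.5-fold, 7 were higher (7.14%) and 0 lower, beside 8.51% and 3.83% of all genes. The number lower was 14 with library size alone and 5 at an adjusted p under 0.01. It was 5 to 10 without 1 library, the 5 without Parental replicate 3 or IRF2_KO replicate 3. Signs changed in genes near 0: Gaa ranged from -0.07 to 0.03 and Atp6v0c from -0.11 to 0.07 without 1 library. Gaa was 0.00 without Parental replicate 3 and 0.03 without IRF2_KO replicate 1, Atp6v0c was 0.03 without Parental replicate 2 and 0.07 without IRF2_KO replicate 1, and Atp6v1h was -0.00 with library size alone. The cause was not tested. Sgsh, Atp6v0c and Atp6v0d2, each with at most 376 reads in a library, had the largest SE of the members (0.14, 0.13 and 0.12).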
